A study of Mus musculus with 8 samples.

Results

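The genes described here encode the building blocks of the cornified envelope, the enzymes that crosslink or modify them, and the S100 calcium-binding proteins. They were chosen by name from the table of the comparison of tongue epithelium with and without doxycycline. Every symbol of the small proline-rich (Sprr), late cornified envelope (Lce), S100a, transglutaminase (Tgm) and peptidylarginine deiminase (Padi) families was taken, together with 18 single genes, of which 17 had a value. This gave 66 genes of the 15540 per the authors' deposited table. The set holds 10 Sprr genes, 20 Lce genes, 11 S100 genes, 6 transglutaminases, 2 deiminases and 17 single genes. In the GENCODE M21 annotation 83 genes fit the same rule, and the other 17 have no value here. They are Flg2, Lce6a, Padi3, Padi4, Padi6, S100a2, S100a5, S100a9, S100a11-ps, Sprr2a1, Sprr2a2, Sprr2c-ps, Sprr2d, Sprr2e, Sprr2f, Sprr4 and Tgm4.

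A cornified envelope replaces the plasma membrane of a keratinocyte at the end of its differentiation. Envoplakin and periplakin form a scaffold beneath the membrane, transglutaminases crosslink involucrin, loricrin, small proline-rich and late cornified envelope proteins onto it, and deiminases convert arginines of keratins and filaggrin to citrulline. Many of these genes lie together in the epidermal differentiation complex, flanked by S100 genes. On the dorsal tongue the filiform papillae are cornified and carry repetin and trichohyalin.

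RNA came from tongue epithelium of C57BL/6 mice that all carry the K14-rtTA and TRE-FLBmi-1 transgenes (KrTB). There were 4 KrTB+DOX libraries, made from mice that drank water with doxycycline (2 mg/mL), and 4 KrTB libraries, made from mice that drank plain water. Expression is thus driven from the keratin 14 promoter of basal keratinocytes: the rtTA protein made there binds the TRE element and turns on Bmi-1 when doxycycline is present. No mice without the transgenes were given doxycycline. Effects of doxycycline itself and of the Bmi-1 that it induces therefore cannot be told apart. The age and sex of the mice, not given in the sources used here, are left out. The table gives each gene a log2 fold change, a mean in log2 CPM (read counts scaled to library size) over both groups and a p-value of limma, with no values per library. A positive change was read as higher in KrTB+DOX from Bmi1, the switched gene (log2 fold change 5.42 per the authors' deposited table), because the table does not state the sign. A gene is said to have risen or fallen where its adjusted p over all 15540 genes was under 0.05.

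The tissue label was checked against marker genes. The tongue surface keratins Krt13 and Krt4 averaged 13.98 and 13.88 log2 CPM, and the muscle myosin Myh4 averaged 13.56 log2 CPM per the authors' deposited table. Of the 11 tongue keratinocyte markers 8 lay above 0 (median 0.40) and 6 had an unadjusted p under 0.05 by limma. Among them 2 rose (Trp63 and Epcam) and 0 fell (18.2%, against 8.13% of all genes). Of the listed keratins, Krt13 stood at -0.29 and Krt4 at -0.25 per the authors' deposited table. The others lay above 0, namely Krt5 (0.40), Krt14 (0.80), Krt6a (0.79) and Krt16 (1.04). None of these keratins was called. Skeletal muscle RNA was abundant in the samples, with 12 of 12 muscle markers measured. Their means summed to 48335 CPM, against 42377 CPM for the 11 tongue keratinocyte markers, without scaling to gene length. All 12 lay below 0 in fold change (median -0.26) and 0 were called by limma. At an unadjusted p under 0.05 by limma stood 4 of them, a level that 25.2% of all genes reached. Fibroblast markers fell in 4 of 10 cases (40%, against 4.31% of all genes). Their median log2 fold change was -0.53, and Col3a1 stood at -2.05 per the authors' deposited table. Fewer cells of a type and less RNA per cell cannot be told apart in such bulk samples.

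Of the 66 genes, 3 rose and 8 fell in KrTB+DOX, that is 11 genes or 16.7%. The share called among all genes was 8.13%, with 3.82% higher and 4.31% lower. At least 2-fold changes were called for 7 of the 66, 2 higher and 5 lower, against 2.00% of all genes (0.882% higher and 1.12% lower). The genes that fell were Sprr2b, Sprr3, Sprr2k and Sprr1a, the transglutaminase Tgm7, and Ecm1, Calml3 and Evpl. The genes that rose were Lce1m, Lce3d and the deiminase Padi1. Against a 1.2-fold change in place of no change, Padi1, Sprr2b and Sprr2k still passed. The median log2 fold change of the 66 was -0.08, against -0.01 over all genes. Loricrin, repetin, filaggrin, hornerin and 18 of the 20 Lce genes did not pass the test. Just inside the threshold stood Sprr1a (adjusted p = 0.042) and Calml3 (0.0242), and just outside it Tgm3 (0.0595) and Ppl (0.069) per the authors' deposited limma table.

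**Figure D1:**
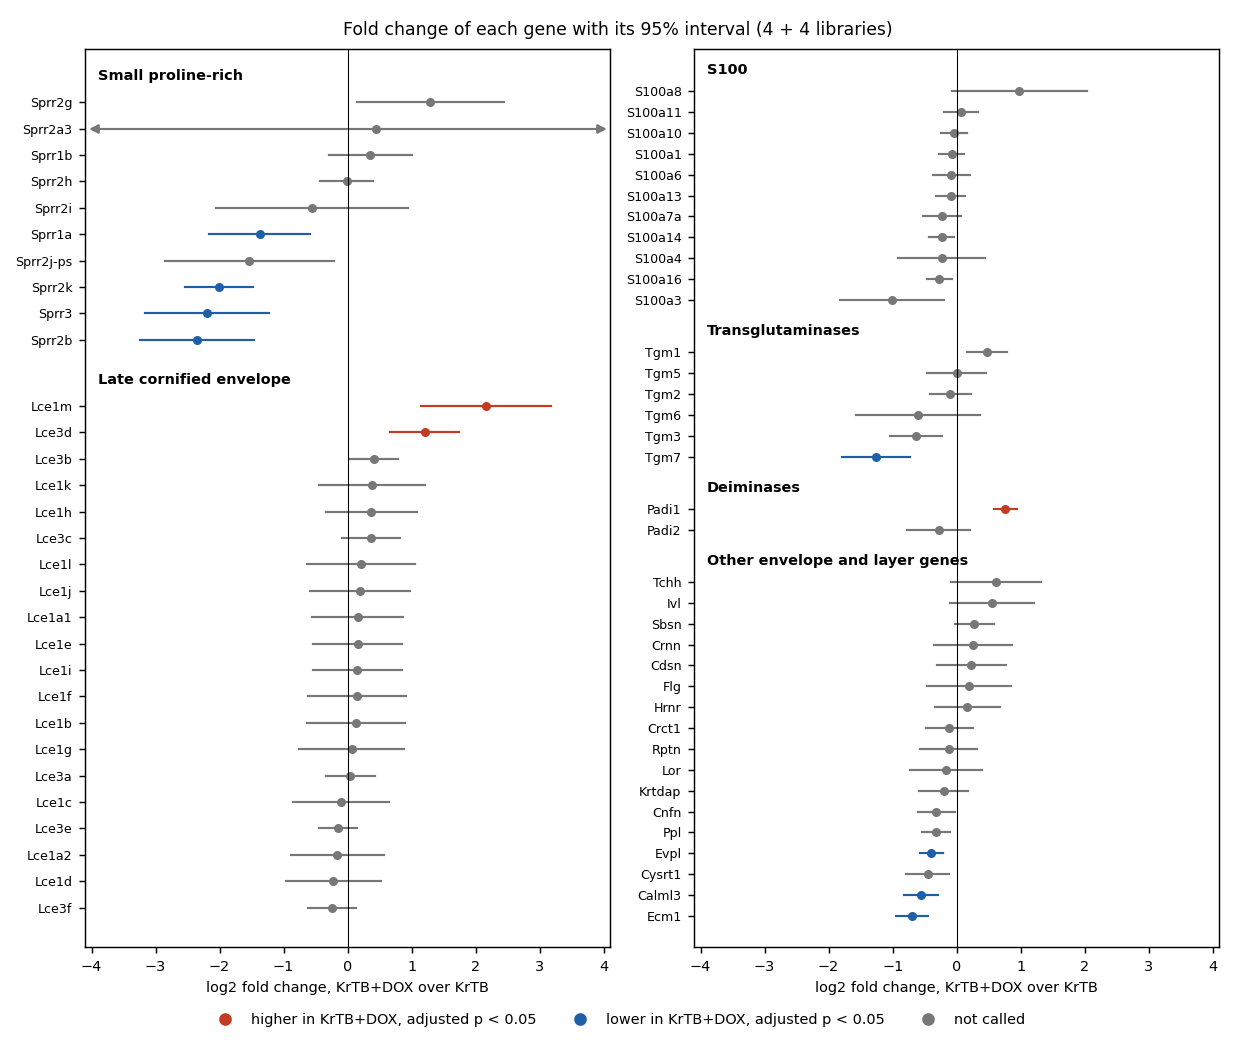
The log2 fold change of KrTB+DOX over KrTB (x axis) is drawn for each of the 66 genes, with bars for the 95% interval from the limma statistics. Genes are grouped by family, blue genes fell, red genes rose, and arrowheads mark an interval that runs past the axis. All 4 blue genes in the Sprr block lie at or below -1.37, while the Lce block is centred near 0 with Lce1m at 2.16 and Lce3d at 1.201.

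Small proline-rich proteins are short crosslinked precursors of the envelope, and they held the largest decreases. Sprr3, typical of internal squamous epithelia such as oesophagus and tongue, was 4.58-fold lower in KrTB+DOX (log2 fold change -2.19, SE 0.43, 95% interval -3.16 to -1.22, adjusted p = 0.0181 by limma) per the authors' deposited table. Its mean over both groups was 9.37 log2 CPM. Sprr1a was 2.59-fold lower (log2 fold change -1.37, SE 0.35, interval -2.16 to -0.59) at a mean of 7.99 log2 CPM per the authors' deposited table. Its paralog Sprr1b, 6.15 log2 CPM on average, stood at 0.35 (SE 0.29, adjusted p = 0.483) per the authors' deposited limma table. The interval of Sprr1b reached from -0.30 to 1.01 and did not overlap that of Sprr1a, but their difference was not tested.

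The Sprr2 genes were expressed at low levels and split. Sprr2b was 5.10-fold lower (adjusted p = 0.00953 by limma, log2 fold change -2.35, SE 0.40) and Sprr2k 4.02-fold lower (-2.01, SE 0.24, adjusted p = 0.00221), at means of 1.87 and 2.02 log2 CPM per the authors' deposited table. Sprr2h had a mean of 2.38 log2 CPM and a log2 fold change of -0.02 (SE 0.19, interval -0.43 to 0.40) per the authors' deposited table. The intervals of Sprr2h and of the pair that fell do not overlap, but here and below differences between genes were not tested, because that needs values per library. The other Sprr2 genes averaged below 1 log2 CPM. Sprr2g stood at 1.29 (adjusted p = 0.153), Sprr2j-ps at -1.54 (0.14) and Sprr2i at -0.56 (0.645) per the authors' deposited limma table. Sprr2a3 stood at 0.44 with an SE of 2.26, so its value carries no information on direction.

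Reads of near-identical genes can be assigned to the wrong copy, and the authors' treatment of them is unstated (not given in the sources used here). Windows of 51 bases, the length of a read, were therefore compared between all annotated transcripts. Sprr1a, Sprr1b, Sprr2h, Sprr2k and Sprr3 shared 0 such windows with another gene. Sprr2b shared 13.7% of its windows, mainly with Sprr2a1 and Sprr2a2, and Sprr2a3 shared 60.5%. The decrease of Sprr2b is uncertain to that extent.

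The promoters of these neighbours are shown because Sprr2k, which fell, and Sprr2h, which was not called, have windows that are 81.8% identical. The windows run from 250 bases before to 50 after the start site, from RefSeq on GRCm38.p6, and capitals mark the AP-1 letters TGANTCA, searched on both strands, and the letters TATAAA on the strand of the gene.
Sprr2k (chr3:92432332-92432631, plus strand): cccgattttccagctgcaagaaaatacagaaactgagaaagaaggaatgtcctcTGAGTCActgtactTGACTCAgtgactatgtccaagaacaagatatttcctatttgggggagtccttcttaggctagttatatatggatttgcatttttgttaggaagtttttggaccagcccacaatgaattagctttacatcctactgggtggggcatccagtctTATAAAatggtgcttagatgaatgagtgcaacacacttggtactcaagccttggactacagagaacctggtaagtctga
Sprr2h (chr3:92385435-92385734, plus strand): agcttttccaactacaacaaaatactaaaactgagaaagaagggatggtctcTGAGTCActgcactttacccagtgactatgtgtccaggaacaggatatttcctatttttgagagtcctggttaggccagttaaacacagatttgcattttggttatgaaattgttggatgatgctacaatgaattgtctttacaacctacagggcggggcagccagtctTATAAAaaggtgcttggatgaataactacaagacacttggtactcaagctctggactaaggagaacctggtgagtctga
Sprr2b (chr3:92316455-92316754, plus strand): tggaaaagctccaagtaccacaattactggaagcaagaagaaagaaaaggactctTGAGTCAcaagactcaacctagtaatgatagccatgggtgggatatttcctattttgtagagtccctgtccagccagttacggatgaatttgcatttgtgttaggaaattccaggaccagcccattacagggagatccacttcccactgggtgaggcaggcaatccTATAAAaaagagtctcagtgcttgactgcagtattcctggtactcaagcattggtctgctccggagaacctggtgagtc
Sprr3 (chr3:92458671-92458970, minus strand): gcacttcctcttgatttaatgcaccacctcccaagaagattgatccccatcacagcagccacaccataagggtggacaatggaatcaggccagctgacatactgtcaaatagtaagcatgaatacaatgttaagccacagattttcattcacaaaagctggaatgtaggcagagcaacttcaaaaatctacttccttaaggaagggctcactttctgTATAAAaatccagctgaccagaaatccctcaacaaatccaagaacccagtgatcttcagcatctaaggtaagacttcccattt
Sprr1a (chr3:92485832-92486131, minus strand): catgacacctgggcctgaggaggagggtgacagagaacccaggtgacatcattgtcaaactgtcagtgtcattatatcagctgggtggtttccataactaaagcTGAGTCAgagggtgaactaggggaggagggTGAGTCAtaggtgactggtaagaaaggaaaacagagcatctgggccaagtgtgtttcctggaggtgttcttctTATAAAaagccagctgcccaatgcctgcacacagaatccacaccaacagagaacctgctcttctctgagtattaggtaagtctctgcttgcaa
Sprr1b (chr3:92438730-92439029, minus strand): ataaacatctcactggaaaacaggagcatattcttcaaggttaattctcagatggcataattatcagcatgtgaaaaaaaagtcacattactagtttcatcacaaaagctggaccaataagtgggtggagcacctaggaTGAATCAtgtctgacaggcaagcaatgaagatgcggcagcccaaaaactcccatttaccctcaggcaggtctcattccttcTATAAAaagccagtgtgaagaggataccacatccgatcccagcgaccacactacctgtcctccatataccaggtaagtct
All 6 windows hold TATAAA, beginning 29 to 43 bases before the start site. Sprr2k, Sprr2h and Sprr2b hold TGAGTCA at 196, 198 and 195 bases before it, and Sprr2k alone of these 3 holds another match, TGACTCA, at 182 bases. Sprr1a holds TGAGTCA at 146 and 116 bases and Sprr1b TGAATCA at 111 bases. The Sprr3 window holds 0 matches of TGANTCA. Of these 6 genes, those that fell and those that did not thus had TATAAA, and all but Sprr3 had TGANTCA. The promoter of Sprr2b was 63.7% identical to that of Sprr2h and 65.2% identical to that of Sprr2k, while Sprr1a and Sprr1b were 52.6% identical.

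Promoter windows were found for 56 of the 66 genes. TGANTCA occurred in 17 of these (30.4%), against 8.97% of all 27025 genes with a window, and TATAAA in 21 (37.5%), against 9.77%. Within the set the letters were unevenly spread. TGANTCA was found for 6 of 8 Sprr genes and for 0 of 19 Lce genes, and TATAAA for 7 of 8 and 2 of 19. Matches of CACCC on either strand, letters found in KLF sites, occurred in 34 of 56 genes (60.7%) and in 59.8% of all genes. AGGAAG on either strand, letters found in ETS sites, occurred in 27 of 56 (48.2%) and in 38.4% of all. A match describes the letters of a window and does not show that a factor binds there.

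All 10 Sprr genes with a value lie in a single cluster, so the Sprr genes that fell necessarily lie close to each other. The epidermal differentiation complex, taken here from S100a1 to S100a10 on chromosome 3 from 90511034 to 93564643 of GRCm38, holds 62 genes of the table, 49 of them in the set. Sprr2b (92316620 to 92318085, plus strand), Sprr2k (92432582 to 92433925, plus strand), Sprr3 (92456502 to 92458720, minus strand) and Sprr1a (92483952 to 92485895, minus strand) lie within 169 kb of each other. That stretch holds 10 genes with a value, of which these 4 fell and 0 rose. Its ends were set by Sprr2b and Sprr1a, genes that fell, so the count only describes the stretch. Sprr1b (92436809 to 92438789, minus strand) lies between Sprr2k and Sprr3, and Sprr2h (92385685 to 92387324, plus strand) between Sprr2b and Sprr2k. Across the whole complex 3 genes rose and 5 fell (12.9%, against 8.13% of all genes). The median log2 fold change of its 62 genes was 0.06. The 17 genes of the set that lie elsewhere had a median of -0.32, with 1 that rose and 4 that fell (29.4%).

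**Figure D2:**
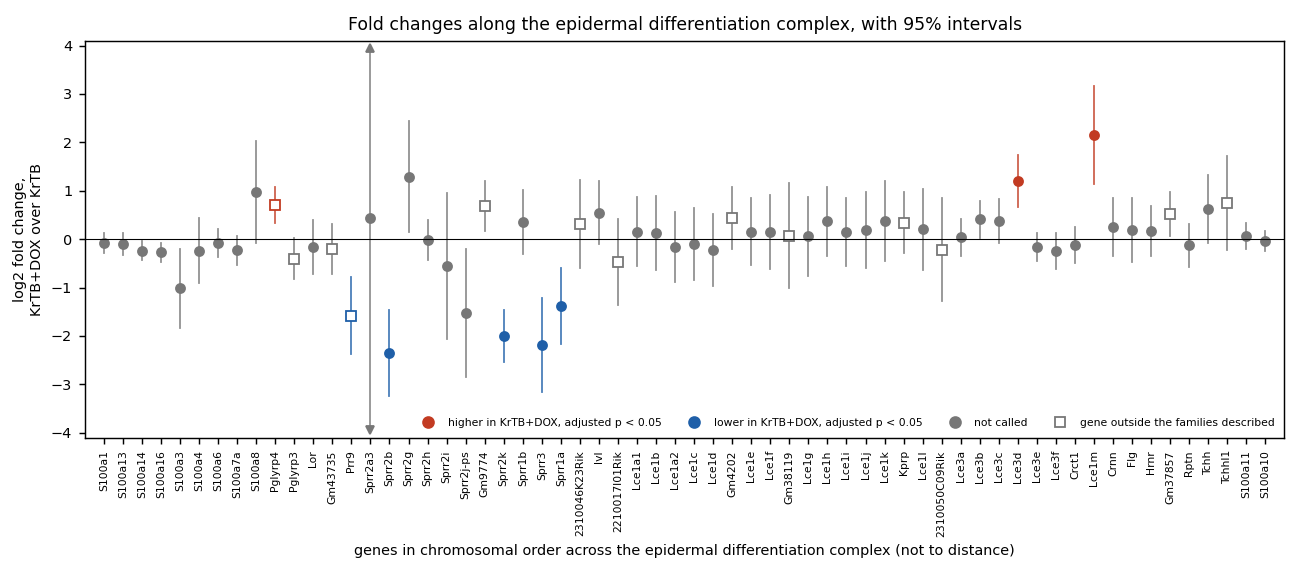
Genes are drawn in chromosomal order across the epidermal differentiation complex (x axis, not to distance), with the log2 fold change of KrTB+DOX over KrTB on the y axis and bars for 95% intervals. Filled circles are genes of the set and open squares the 13 other genes. In the Sprr block the blue genes are interspersed with uncalled ones, with Sprr3 and Sprr1a side by side, and the 13 Lce1 genes from Lce1a1 to Lce1l run level near 0.

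Late cornified envelope proteins are small cysteine-rich precursors that are added to the envelope late. The Lce1 genes other than Lce1m ran together near 0, with log2 fold changes from -0.23 (Lce1d) to 0.38 (Lce1k) and a median of 0.15 over these 13 genes per the authors' deposited table. By limma 0 of the 13 were called, against 8.13% of all genes, and 0 had an unadjusted p under 0.05, against 25.2%. Their means lay between 5.45 (Lce1e) and 6.99 (Lce1d) log2 CPM. Their SEs were alike as well, from 0.31 to 0.38. The 13 genes were Lce1a1, Lce1a2, Lce1b, Lce1c, Lce1d, Lce1e, Lce1f, Lce1g, Lce1h, Lce1i, Lce1j, Lce1k and Lce1l. They shared 8.97% to 25.99% of their windows with other genes, mostly with each other, so that their values are in part not independent.

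Lce1m stands apart in place and in value. It lies at 93017810 to 93019060 on the minus strand, beyond the Lce3 genes, and it shared 0 windows with other genes. It was 4.46-fold higher in KrTB+DOX (log2 fold change 2.16, SE 0.45, interval 1.15 to 3.17, adjusted p = 0.0225 by limma) at a low mean of 1.198 log2 CPM per the authors' deposited table. Lce3d was 2.30-fold higher (log2 fold change 1.201, SE 0.24, interval 0.67 to 1.74) at 4.35 log2 CPM per the authors' deposited table. It shared 48.8% of its windows, mainly with Lce3f and Lce3e. The others stood at 0.41 (Lce3b, adjusted p = 0.166), 0.37 (Lce3c, 0.287), 0.04 (Lce3a, 0.909), -0.15 (Lce3e, 0.495) and -0.24 (Lce3f, 0.397) per the authors' deposited limma table. These 5 genes averaged 7.14 to 8.02 log2 CPM. The intervals of Lce3e (-0.44 to 0.14) and Lce3f (-0.61 to 0.13) lie below that of Lce3d.

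Of the 17 single genes 0 rose and 3 fell (17.6%, against 8.13% of all genes), namely Evpl, Ecm1 and Calml3. Evpl (chromosome 11), the envoplakin scaffold, fell by 0.40 on the log2 scale (SE 0.08, interval -0.58 to -0.21, adjusted p = 0.0216 by limma) per the authors' deposited table. Its partner periplakin, Ppl, stood at -0.32 (SE 0.10, adjusted p = 0.069) per the authors' deposited limma table, with a mean of 9.90 log2 CPM. Ppl passed once a trend with GC content and transcript length was removed (adjusted p = 0.0463). Ecm1, a secreted matrix protein of differentiating keratinocytes, was 1.63-fold lower (adjusted p = 0.00817 by limma, log2 fold change -0.70, SE 0.11) per the authors' deposited table. Calml3, a calmodulin-like protein of differentiating epithelia, was 1.47-fold lower (log2 fold change -0.56, SE 0.12) at 9.64 log2 CPM per the authors' deposited table. Cysrt1, a cysteine-rich protein whose human counterpart binds late cornified envelope proteins, stood at -0.46 (adjusted p = 0.0917) and the envelope protein Cnfn at -0.32 (0.154) per the authors' deposited limma table.

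Loricrin, Lor, a principal envelope protein of cornified epidermis, stood at -0.16 (interval -0.73 to 0.40) and involucrin, Ivl, at 0.54 (interval -0.11 to 1.199) per the authors' deposited table. Ivl had a low mean of 1.74 log2 CPM over both groups. Krtdap (-0.21), Crct1 (-0.12), Cdsn (0.23) and Sbsn (0.27) did not pass per the authors' deposited table. Their adjusted p-values by limma ran from 0.243 to 0.689. Cdsn encodes corneodesmosin, which holds cornified cells together, and Sbsn encodes suprabasin, a secreted protein of upper layers.

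S100-fused proteins join a calcium-binding S100 domain to long repeats that fill the cornifying cell. Repetin, Rptn, had a mean of 12.37 log2 CPM, and its log2 fold change was -0.13 (SE 0.20, interval -0.57 to 0.32) per the authors' deposited table. Trichohyalin, Tchh, at 10.19 log2 CPM, stood at 0.62 (SE 0.31, interval -0.08 to 1.32) per the authors' deposited table. Filaggrin (Flg, 0.19), hornerin (Hrnr, 0.16) and cornulin (Crnn, 0.26) lay above 0 without a call per the authors' deposited table. By limma 0 of these 5 genes were called and 0 had an unadjusted p under 0.05. Over all genes the shares were 8.13% and 25.2%, so few or none would be looked for among 5. The annotated gene Gm37857 overlaps Rptn on the same strand and has its own value, so reads of the pair may be mixed.

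**Figure D3:**
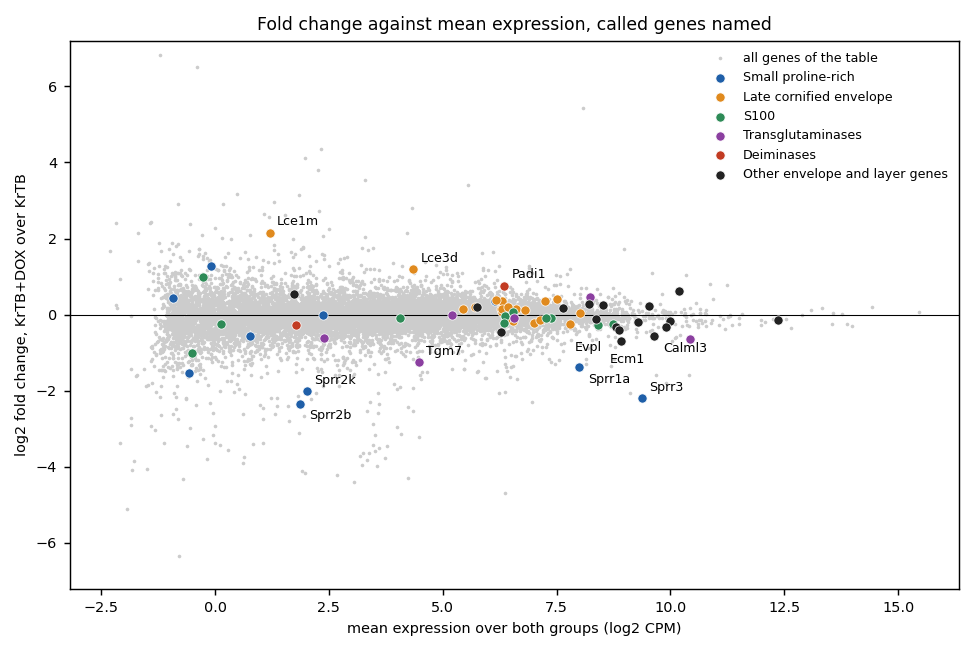
The log2 fold change of KrTB+DOX over KrTB (y axis) is plotted against the mean over both groups in log2 CPM (x axis) for all 15540 genes in grey and the 66 genes in colour. Called genes of the set are named. Sprr3, at a mean of 9.37 and a fold change of -2.19, lies far below 0, whereas Lce1m, Sprr2b and Sprr2k have means near or below 2.02.

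Of the 6 transglutaminases only Tgm7 was called (16.7%, against 8.13% of all genes), and differences between these enzymes were not tested. Tgm7, a transglutaminase whose role in keratinocytes is little known, was 2.39-fold lower in KrTB+DOX (log2 fold change -1.25, SE 0.24, interval -1.78 to -0.72, adjusted p = 0.0152 by limma) per the authors' deposited table. Tgm5, which acts in the upper epidermis and lies next to Tgm7 on chromosome 2, stood at 0.00 (SE 0.20, interval -0.46 to 0.45) per the authors' deposited table. Tgm3, a main enzyme of the final crosslinking steps, with a mean of 10.42 log2 CPM, stood at -0.64 (SE 0.18, adjusted p = 0.0595) per the authors' deposited limma table. The membrane-anchored enzyme Tgm1 stood at 0.47 (SE 0.14, adjusted p = 0.0718) at 8.24 log2 CPM per the authors' deposited limma table. The intervals of Tgm3 (-1.04 to -0.23) and Tgm1 (0.15 to 0.79) lie on opposite sides of 0, though neither gene was called. The tissue transglutaminase Tgm2 (-0.10) and Tgm6 (-0.61, SE 0.43) did not pass per the authors' deposited table.

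Padi1, which citrullinates keratins and filaggrin in upper layers, had the smallest p of the set. It was 1.69-fold higher in KrTB+DOX (log2 fold change 0.76, SE 0.08, interval 0.59 to 0.94, adjusted p = 0.0013 by limma) at a mean of 6.35 log2 CPM per the authors' deposited table. Padi2 lies in the same cluster on chromosome 4 and stood at -0.28 (SE 0.22, adjusted p = 0.449) at 1.77 log2 CPM per the authors' deposited limma table.

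S100 proteins are small calcium-binding dimers. By limma 0 of the 11 genes were called, and 3 (27.3%, against 25.2% of all genes) had an unadjusted p under 0.05, namely S100a3, S100a14 and S100a16. Of the 11, 9 lay below 0, with a median of -0.10. S100a14 (-0.23, SE 0.09) and S100a16 (-0.27, SE 0.09, adjusted p = 0.0914), epithelial members averaging 8.74 and 8.41 log2 CPM, had intervals below 0 per the authors' deposited limma table. S100a1 (-0.08), which regulates calcium in muscle, S100a6 (-0.08), S100a10 (-0.05), the partner of annexin A2, S100a11 (0.06) and S100a13 (-0.10) lay within 0.10 of 0 per the authors' deposited table. S100a7a, related to human psoriasin, stood at -0.23 (interval -0.53 to 0.07) per the authors' deposited table. S100a8, a gene of neutrophils and of stressed keratinocytes, averaged -0.27 log2 CPM and stood at 0.98 (SE 0.47, adjusted p = 0.228) per the authors' deposited limma table. Of 14 neutrophil markers 6 had a value, and their values summed to 22 CPM. Among these 6 markers 1 rose (16.7%, against 8.13% of all genes), the decoy receptor Il1r2 (log2 fold change 2.14, mean 4.22 log2 CPM). Lcn2 (0.78), Mmp9 (0.86), Csf3r (-0.59), Cxcr2 (-1.22) and Ltf (-1.88) did not pass per the authors' deposited table. S100a3 (-1.01, SE 0.36), known from hair cuticle, and S100a4 (-0.24), a gene of mesenchymal and myeloid cells, averaged below 1 log2 CPM per the authors' deposited table. S100a4 shared 47.3% of its windows, all with Gm42674. The part of muscle, fibroblasts or neutrophils in these values was not tested.

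Levels between genes of the set were compared only per length, as mean log2 CPM per kilobase of annotated exon over both groups. On this scale Rptn was highest (10.32), followed by Krtdap (9.85), Cnfn (9.27), Lor (9.17), Calml3 (9.13) and Sprr3 (9.08). The spread of these levels between libraries is not known, so the order of close neighbours was not tested. Lowest were S100a3 (-3.003) and Sprr2a3 (-2.45). Together the 66 genes summed to 19659 CPM, or 2.00% of all genes of the table.

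Most fold changes of the set were less precise than is typical at the same expression, a trait shared with related groups of genes. The SE of each gene was ranked among the 401 genes nearest to it in mean expression. It lay above the median of those neighbours for 61 of the 66 genes and above their 90th percentile for 38. The same counts were 34 and 16 for the 36 other late differentiation genes listed below, and 11 and 5 for the 11 tongue keratinocyte markers. They were 11 and 9 for the 13 other genes of the complex, and 10 and 8 for the 10 fibroblast markers. For the 8 endothelial markers they were 7 and 0. Over the 13 Lce1 genes near 0 the SE was 4.09 times the median of their neighbours, taken as the median over these genes. It was 3.82 times for Sprr3, 3.93 times for Sprr1a and 3.68 times for Sprr1b. The ratio was 0.97 for Padi1, 0.75 for Evpl, 1.04 for Ecm1, 1.05 for Calml3 and 1.12 as the median over the S100 genes. A change in an Lce1 gene therefore had to be larger to pass than in a typical gene of that level, and the intervals of these 13 genes reach from -0.97 to 1.21. The libraries behind this spread were not analysed here.

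**Figure D4:**
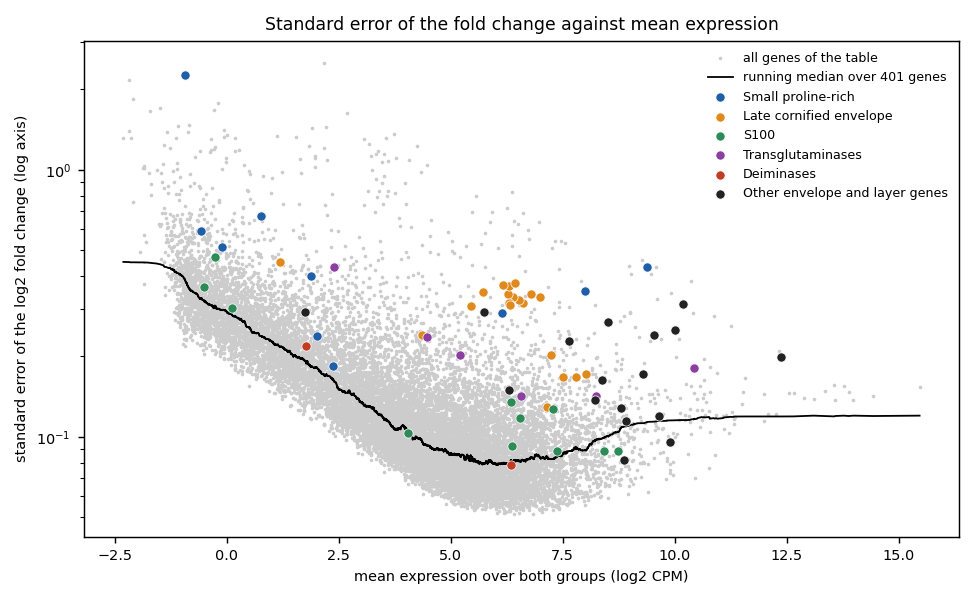
The SE of the log2 fold change (y axis, log scale) is plotted against the mean over both groups in log2 CPM (x axis) for all genes in grey and the 66 genes in colour, with the running median over 401 genes as a line. The Lce1 genes between 5.45 and 6.99 log2 CPM lie well above the line, while Padi1, Evpl and several S100 genes lie on or below it.

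Genes that act with the envelope were counted from lists. Of 25 transcription regulators of the complex 2 rose and 1 fell (12%, median 0.09). Of all genes 8.13% were called, 3.82% higher and 4.31% lower. Fosl1, an AP-1 subunit, rose by 1.72 on the log2 scale (SE 0.29) and Trp63, the master regulator of stratified epithelia, by 0.78 (SE 0.16), whereas Satb1, a chromatin organiser of the complex, fell by 0.59 (SE 0.12) per the authors' deposited table. Klf4, Grhl3, Ovol1, Zfp750 and Prdm1, which drive terminal differentiation, were among those without a call. Of 22 proteases and inhibitors that process envelope proteins 21 had a value, of which 3 rose and 1 fell (19.0%, median 0.04). Casp14, a caspase of cornifying cells that degrades filaggrin, was 2.19-fold higher (log2 fold change 1.13, SE 0.17) and the desquamation protease Klk7 2.13-fold higher (1.09, SE 0.14) per the authors' deposited table. Furin, a profilaggrin convertase, also rose (0.33, SE 0.07), while Lgmn, a lysosomal protease, fell by 0.39 (SE 0.10) per the authors' deposited table.

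Of 38 other late differentiation genes 36 had a value, of which 3 rose and 2 fell (13.9%, against 8.13% of all genes, median 0.04). Krt1, a keratin of cornified epidermis, rose by 2.64 on the log2 scale (SE 0.29) at 1.07 log2 CPM, Krt80 by 0.56 (SE 0.13) and the antibacterial Pglyrp4 by 0.71 (SE 0.16) per the authors' deposited table. Clic3 fell by 0.66 (SE 0.14) and the desmosomal cadherin Dsc2 by 0.58 (SE 0.15) per the authors' deposited table. Of 14 listed partners and receptors of S100 proteins 11 had a value. By limma 0 of them were called and 4 had an unadjusted p under 0.05 (36.4%, against 25.2% of all genes). Anxa2, the partner of S100a10, stood at 0.34 (adjusted p = 0.0995) per the authors' deposited limma table.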

How the data were processed

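Stranded mRNA libraries of tongue epithelium were read as pairs of 51 bp, per the labels' protocols. Tools named without settings, per the submitters' processing notes, were STAR 2.5.2b, HTSeq 0.11.2, cutadapt and bcl2fastq 2.20, with the build GRCm38. The deposited file, by its headers, is limma output of the authors: a log2 fold change, a mean log2 CPM, a moderated t score, and a p-value, raw and after Benjamini-Hochberg adjustment, per gene. It has 0 columns per library, so depth is unknown. The labels give no pairing. Unstated (not given in the sources used here) were limma's version, design and low-count filter.

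The SE was the fold change divided by t. The deposited t and p gave 9.76 degrees of freedom, used for 95% intervals. Recomputed adjusted p-values differed from the deposited ones by at most 6.4e-15. Code ran in Python 3.11.15 with scipy 1.17.1 and statsmodels 0.14.6, and was tested on simulated data. Alternatives were a filter at a mean of 1 log2 CPM, a test against a 1.2-fold change, Benjamini-Yekutieli adjustment, median centring, removal of a spline trend on transcript GC content and length, and thresholds of 0.01 and 0.10. Symbols matched GENCODE M21 for 15085 of 15540 genes, and for all 66 members.

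The genes, lists and tests were chosen with earlier results of these data known. The planned rule for naming took every called gene, the extremes and most abundant gene of each family, genes nearest the threshold, and called genes of the lists. Some other genes are named for their roles, picked after their values were seen. Whether replicates came from separate mice rests on the series' design text, which calls them biological.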

Additional observations from a re-analysis of the deposited data

How the results depend on the processing

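The counts of the set were 3 higher and 8 lower. They became 1 and 2 when tested against a 1.2-fold change (Padi1 higher, Sprr2b and Sprr2k lower), 1 and 1 with Benjamini-Yekutieli adjustment (Padi1 and Sprr2k), and 1 and 3 at an adjusted p under 0.01 (Ecm1 added to the lower ones). Over all genes the calls shrank to 222, 147 and 303 of 15540 under these settings, against 1263. Leaving out the Sprr2 and Lce genes left 1 higher and 6 lower. With members sharing over 10% of their windows left out, an alternative chosen after seeing the data, 2 and 7 remained. The same 11 genes were called after a filter at a mean of 1 log2 CPM and after centring on the median of all genes, and Ppl joined them with the GC and length trend removed. At an adjusted p under 0.10 the counts were 4 and 12, with Tgm1 added to the higher and Cysrt1, Ppl, S100a16 and Tgm3 to the lower ones, and 2347 of all genes were called. Sprr3 had an adjusted p of 0.0518 against a 1.2-fold change. Only centring, which removed a median of -0.006, and the trend removal alter a fold change. Under these no called gene of the set changed direction, and under the other settings direction could not change.

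The lists moved in the same way. For transcription regulators the 2 higher and 1 lower became 1 and 0 against a 1.2-fold change and at an adjusted p under 0.01, 0 and 0 with Benjamini-Yekutieli adjustment, and 4 higher at an adjusted p under 0.10. For proteases the 3 higher became 1 with Benjamini-Yekutieli adjustment. They became 2 against a 1.2-fold change, under 0.01 and with the GC and length trend removed. Their 1 lower became 0 with Benjamini-Yekutieli adjustment, against a 1.2-fold change and under 0.01. For late differentiation genes the 3 higher became 1 under those 3 settings. Their 2 lower became 0 under the same 3 settings and 1 with the GC and length trend removed. They became 3 after the filter at a mean of 1 log2 CPM and 4 under 0.10. For S100 partners the 0 higher and 0 lower became 2 and 1 under 0.10.

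No paired analysis was possible because the table has no values per library and the labels pair none. Leaving out a library could not be run for the same reason. Depth per library, and so what it limits, is unknown.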

Other observations

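The complex on chromosome 3 also holds 13 genes outside the families described. Prr9, a proline-rich gene next to the Sprr2 cluster, fell by 1.58 on the log2 scale (SE 0.36, adjusted p = 0.0277 by limma) at 4.51 log2 CPM per the authors' deposited table. It lies between Lor and Sprr2a3. Pglyrp4, a peptidoglycan recognition protein, rose by 0.71 while its family member Pglyrp3 stood at -0.40 (adjusted p = 0.222) per the authors' deposited limma table. The pair lie far apart, starting at 90726906 (Pglyrp4) and 92014583 (Pglyrp3). The keratinocyte proline-rich protein Kprp, at 8.87 log2 CPM, stood at 0.34 (SE 0.28), and Tchhl1, a relative of trichohyalin, at 0.74 (SE 0.43) per the authors' deposited table. Neither passed the test.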
